A study of Mus musculus with 14 samples.

Results

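A miRNA isoform that begins 1 base upstream of the annotated 5′ end (here the upstream form) was listed for 254 of the 2030 rows of the deposited table, under the miRNA's name with a suffix. The header does not define the suffix, and it was read as a start shifted by 1 base. The members described here are the 70 upstream forms with a value of at least 10 RPM in at least 3 of the 14 libraries. RPM scales the miRNA rows of a library to a total of 1000000. Of the 70, 37 come from the 5p arm of a hairpin, 27 from the 3p arm and 6 have no arm in the name. By the same threshold the table holds 275 rows at the annotated start (the annotated form), 108 rows starting 1 base downstream and 135 rows shifted by 2 or more bases. The members just inside the threshold were miR-1843b-3p and miR-10a-5p, whose third-highest values were 10.04 and 10.43 RPM, and those just outside were miR-28c and miR-1843-5p, at 9.09 and 8.37 RPM.

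Small RNA was sequenced from the small intestine of C57BL/6J mice with a Sox9-eGFP reporter, in which fluorescence follows activity of the Sox9 gene. Cells of the intestine were sorted by fluorescence, giving 4 populations with 3 libraries each (High, Low, Sublow, Negative), and 2 libraries came from Non-sorted cells. All libraries were made with the TriLink CleanTag kit, and the purpose given is the separation of crypts into subpopulations. As background, the brightest cells of this reporter are known to be rich in hormone-secreting cells, the Low gate in stem cells, the Sublow gate in dividing progenitors, and cells without signal in mature types. The labels give no age, and they do not say that libraries of a group are from separate animals, so the spread behind each p-value may be technical. In bulk samples such as these, fewer cells of a type and less RNA per cell cannot be told apart.

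A mature miRNA is cut from its hairpin by Drosha and Dicer, and the position of the cut sets its 5′ end. The bases just after that end form the seed, which pairs with target messenger RNAs. A cut 1 base upstream therefore moves the seed by 1 base and can change the set of messages that are recognised, while leaving the rest of the sequence nearly as it was. Such 5′ isoforms are usually minor products, and a few miRNAs are known for making them in quantity.

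The deposited files give no sequences. Of the 70 members, 54 matched a mature miRNA in RefSeq (GRCm38.p6), and the upstream form below is that sequence with the preceding hairpin base added. Members without a match include miR-375-3p, miR-378-3p, miR-5109 and miR-5115, and their annotated starts were not checked. Capitals mark the seed of the form shown (its bases 2 to 8). The first set holds the upstream forms whose values carry the results that follow, on ratios to the annotated form, on hairpin copies and on forms larger than their annotated form.
let-7e-5p upstream: cUGAGGUAggagguuguauaguu
let-7a-1-5p upstream: aUGAGGUAguagguuguauaguu
miR-101a-3p upstream: gUACAGUAcugugauaacugaa
miR-26a-1-5p upstream: gUUCAAGUaauccaggauaggcu
miR-26a-2-5p upstream: aUUCAAGUaauccaggauaggcu
miR-194-1-5p upstream: gUGUAACAgcaacuccaugugga
miR-194-2-5p upstream: cUGUAACAgcaacuccaugugga
miR-215-5p upstream: aAUGACCUaugauuugacagac
miR-425-3p upstream: cAUCGGGAaugucguguccgcc
miR-677-5p upstream: cUUCAGUGaugauuagcuucuga
miR-1843b-5p upstream: cAUGGAGGucucugucugacuu
miR-103-1-3p upstream: aAGCAGCAuuguacagggcuauga
For comparison, these are annotated forms whose seed equals the upstream seed of miR-101a-3p and of miR-103-1-3p, in that order.
miR-101b-3p annotated: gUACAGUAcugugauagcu
miR-16-2-5p annotated: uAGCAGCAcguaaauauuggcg
The 54 matched members carried 36 different upstream seeds. The largest group was UGAGGUA, held by 10 members of the let-7 and miR-98 family, all with the annotated seed GAGGUAG. Next came 3 members each with UAAUACU (miR-200b-3p, miR-200c-3p and miR-429-3p), UGGAAGA (miR-7a-1-5p, miR-7a-2-5p and miR-7b-5p) and UUCAAGU (both miR-26a copies and miR-26b-5p).

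For 5 of the 54 members (9.26%) the upstream seed was the annotated seed of another mouse miRNA in RefSeq. These were miR-101a-3p with UACAGUA (miR-101b-3p), both miR-103 copies with AGCAGCA (the miR-15, miR-16, miR-195, miR-497 and miR-322 family among others), miR-1843b-5p with AUGGAGG (miR-1843a-5p) and miR-378b with CUGGACU (miR-378c). Among the 217 matched annotated rows past the threshold, 31 (14.3%) would give such a seed if moved 1 base upstream. The base added at the 5′ end was C in 33.3% of the matched members, G in 29.6%, A in 24.1% and U in 13%. The same position before all 217 annotated rows held C in 30.4%, G in 34.6%, A in 20.7% and U in 14.3%. The annotated form itself began with U in 68.5% of the members and in 48.8% of the 217 rows. In the annotation of the same build (GENCODE vM21), 26 of the 54 mature sequences lie in an intron of a longer gene on their strand, 15 in an exon and 13 in no such gene. The mature sequence of let-7e-5p (chr17:17830366-17830387, plus strand) lies in an intron of Spaca6. That of miR-101a-3p (chr4:101346957-101346977, minus strand) lies in an exon of the non-coding gene E130102H24Rik. miR-26a-1-5p and miR-26a-2-5p lie in introns of Ctdspl and Ctdsp2, phosphatase genes of 1 family. miR-677-5p lies in an intron of Atp5b, which encodes a subunit of the mitochondrial ATP synthase.

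Library depth, estimated from the spacing of low values, was 1.89 to 16.4 M miRNA reads (median 5.01 M), and the smallest listed value in a library corresponded to 10.02 to 10.91 reads. A 0 therefore means below a floor of 0.62 to 5.55 RPM depending on the library, and these depths cover counting error only. Annotated endocrine miRNAs summed to 187496 to 215236 RPM in High and 7057 to 8406 RPM in Negative, and miR-192, miR-194 and miR-215, which hepatocyte nuclear factors drive in gut epithelium, to 132476 to 158651 RPM and 530524 to 534071 RPM. Within the latter sum annotated miR-192-5p went the other way, at 89615 to 113889 RPM in High and 82655 to 82816 RPM in Negative. All 5 epithelial markers of the miR-200 family were above 0 in every library. Haematopoietic markers summed to at most 213 RPM, with 2 of the 6 listed at 0 throughout, mesenchymal markers to at most 95.7 RPM and endothelial markers to at most 17.1 RPM. The embryonic miRNA miR-295-3p divided the libraries across the populations. It was listed at 395 to 928 RPM in High 2, Low 2, Sublow 2, Negative 1, Negative 2 and both Non-sorted libraries, and at 0 in the other 7. Every library numbered 2 thus lists it and none numbered 3 does.

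Most upstream forms were a small fraction of their miRNA. Over the 14 libraries the median of the 70 mean levels was 30.9 RPM. The highest mean was 3074 RPM (miR-375-3p), 13 members had a mean of at least 100 RPM and 24 a mean below 20 RPM. An annotated row was listed for 69 members, all but miR-1843b-3p. Taking each member's median over libraries, the upstream form came to less than 1% of the annotated form in 36 members, to 1 to 10% in 13, to 10 to 100% in 10 and to at least 100% in 10. The median over members was 0.869%, against 3.89% for the forms 1 base downstream and 1.12% for forms shifted further. Where both 1-base shifts of a miRNA passed the threshold (53 members), the upstream form had the larger mean in 8. The members were chosen by their level across these libraries, so these values are a description with no test.

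**Figure D1:**
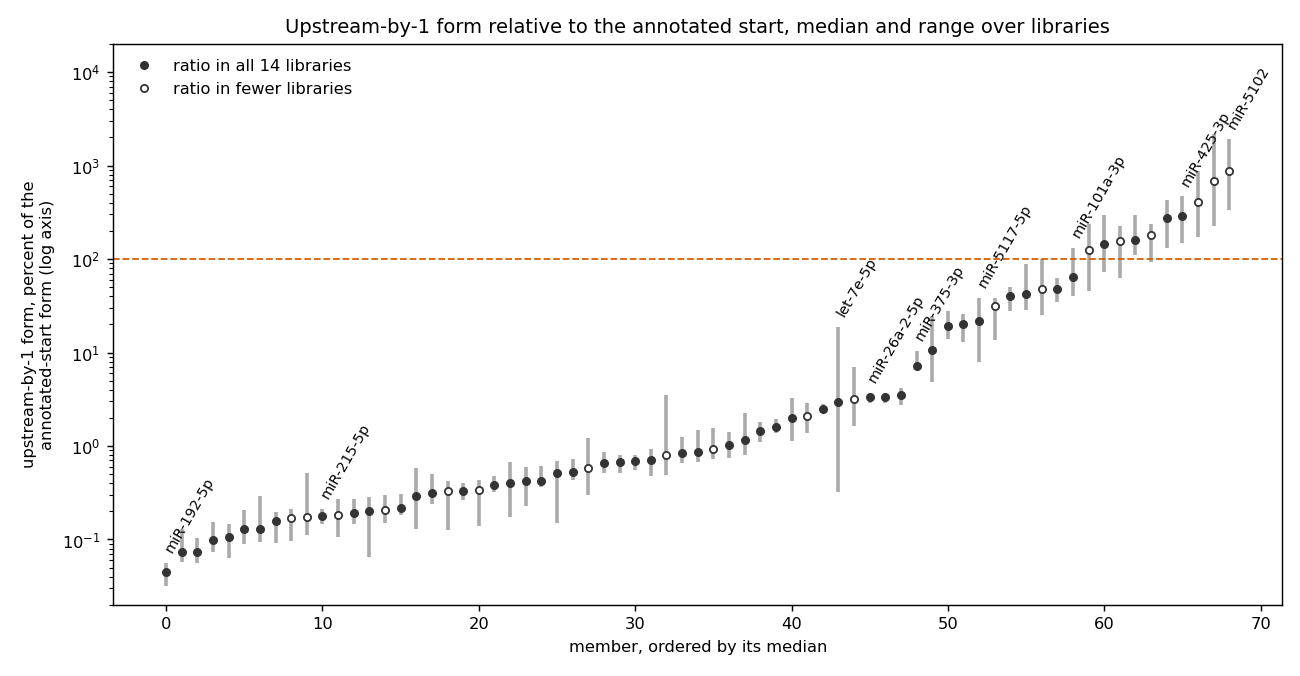
Upstream form as a percent of the annotated form of the same miRNA (log axis) for the 69 members with an annotated row, ordered by median; points are medians and grey lines the range over libraries, open points marking members with a ratio in fewer than 14 libraries. Of the medians, 36 lie below 1% and 10 at or above the dashed line at 100%.

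Summed over the 70 members, upstream forms made up 1.29 to 1.39% of the miRNA values in the 3 High libraries. They made up 0.894 to 1.07% in Low, 0.575 to 0.632% in Sublow, 0.508 to 0.523% in Negative and 0.532 to 0.579% in Non-sorted cells. The ranges of High, Low, Sublow and Negative do not overlap. Without miR-375-3p the sum was 0.485 to 0.535% in High, 0.511 to 0.574% in Low, 0.433 to 0.522% in Sublow, 0.503 to 0.513% in Negative and 0.472 to 0.493% in Non-sorted cells, and the groups overlap.

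**Figure D2:**
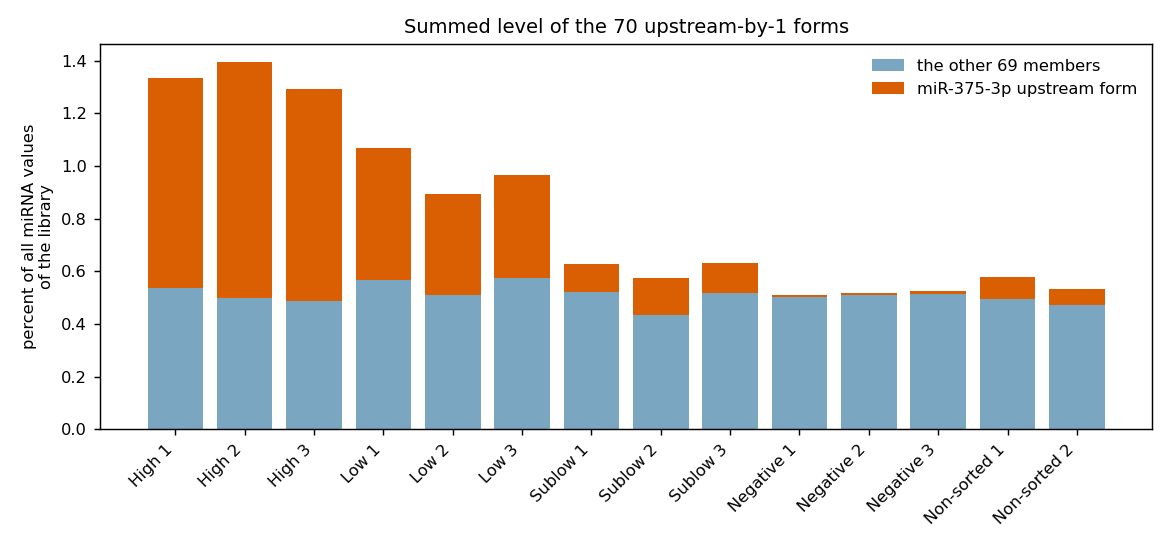
Summed level of the 70 upstream forms as a percent of all miRNA values, 1 bar per library, with miR-375-3p in orange and the other 69 members in blue. The blue part lies between 0.433 and 0.574% in all 14 libraries, while the orange part shrinks from High to Negative.

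To ask which upstream forms differ between the populations, levels were compared on the log2(RPM + 1) scale with limma, over all 588 rows past the threshold. Among the 4 sorted populations 52 of the 70 members differed at an adjusted p below 0.05, or 74.3%, against 72.3% of all rows tested. In High against Low 19 members were called (background 28.1%), 5 higher and 14 lower (background 7.99% and 20.1%). In Sublow against Low 19 were called (background 34.7%), 8 higher and 11 lower (background 10.4% and 24.3%). In Negative against Low 49 were called (background 66%), 12 higher and 37 lower (background 16.5% and 49.5%). The median differences of the members were -0.45, -0.38 and -0.90, beside -0.11, -0.43 and -0.90 over all rows. The members' shares called were 27.1% in High, 27.1% in Sublow and 70% in Negative. Those of High and Negative are near the share of the whole table. That of Sublow is below it, with 15.7% of the members lower. The 3 comparisons share the Low libraries, and some members reached the threshold only in groups where they are high. Rescaling the libraries by their median ratio moved all log2 differences up, by 0.32, 0.39 and 0.84 at the median. The calls then were 10 higher and 10 lower in High, 10 higher and 7 lower in Sublow, and 17 higher and 14 lower in Negative. The shares over all rows were not taken for this fit or the next, and the backgrounds above do not apply to them. These counts therefore do not set the members against the table. With only the 7 libraries that list miR-295-3p at 0, where Negative has 1 library and its spread is taken from the other groups, 25 members differed among the populations. That fit called 4 higher and 4 lower in High, 5 and 9 in Sublow and 8 and 24 in Negative.

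Upstream and annotated forms of a miRNA changed in the same direction wherever both were called. Of 67 members whose annotated row was tested too, both rows passed in 13 for High against Low, in 17 for Sublow against Low and in 45 for Negative against Low, and all of these pairs had the same sign. Pairs without both calls are left out of this count, and some differed in sign. For let-7e-5p in High against Low the upstream difference was -0.83 and the annotated 0.65, with the annotated form alone called. The same count was not made for the other shifted rows. To ask whether the choice of start site differs between populations, the log2 ratio of upstream to annotated form was compared within libraries. This was possible for 50 members with both rows above 0 in all libraries, among 199 shifted rows tested in 1 limma fit. A library's scaling cancels in this ratio.

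The ratio differed among the sorted populations in 2 of 50 members, or 4%, against 12.1% of all shifted rows. These were let-7e-5p (F = 63.8, adjusted p = 1.31e-05) and miR-5117-5p (F = 43.1, adjusted p = 6.45e-05). At an unadjusted p below 0.05 there were 5. In High against Low, 1 member was called (background 1.01%), which was lower (background 0.503%). In Negative against Low 2 were called (background 3.52%), 1 higher (background 0.503%) and 1 lower (background 3.02%). In Sublow against Low limma called 0 (background 0%), with 2 at an unadjusted p below 0.05, and 1 (let-7e-5p) under a lane term or a replicate block. In High a lane term called let-7e-5p and miR-3096b-5p beside miR-5117-5p, and a replicate block called let-7e-5p beside it. For the other members the intervals bound the change: in each comparison 38 of 50 had a 95% interval of the difference inside ±1 on the log2 scale, with a median half-width of 0.51. A p above the threshold does not show that a ratio was equal. With only the libraries listing miR-295-3p at 0, let-7e-5p was the 1 member called.

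**Figure D3:**
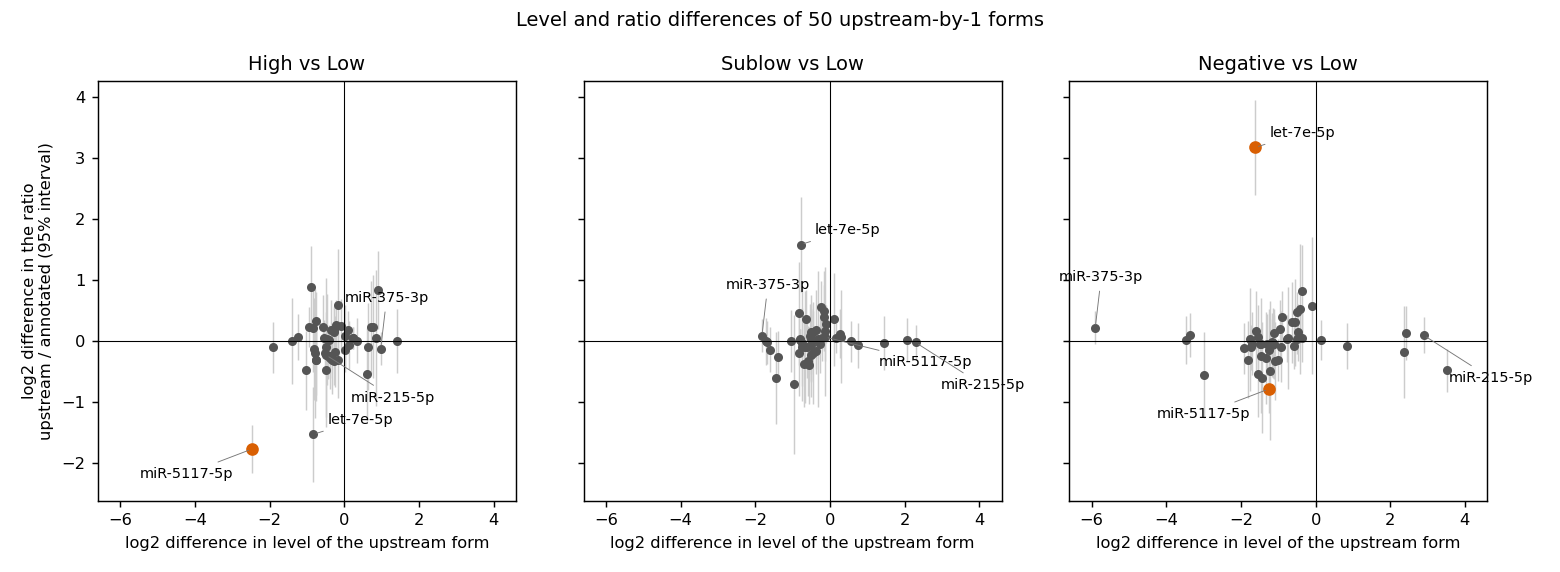
Log2 difference in the level of the upstream form (x axis) against the log2 difference in its ratio to the annotated form (y axis, grey lines the 95% interval) for 50 members, 1 panel per comparison with Low. Orange points passed the ratio test. In the Negative panel levels differ by up to 5.90 downwards while 42 of the 50 ratio differences lie within 0.5 of 0, and let-7e-5p lies at 3.17.

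The endocrine and sensory group (miR-375-3p, miR-182-5p, both miR-7a copies and miR-7b-5p, miRNAs abundant in hormone-secreting cells) had 5 members. In High 2 of the 5 were higher than in Low (background 7.99%), in Sublow 4 were lower (background 24.3%) and in Negative 5 were lower (background 49.5%). The same counts held after median-ratio rescaling. The upstream form of miR-375-3p was at 7974, 8948 and 8052 RPM in High, 5015, 3829 and 3917 RPM in Low and 1048, 1426 and 1137 RPM in Sublow. It was at 44.99, 75.9 and 98.1 RPM in Negative and at 864 and 600.0 RPM in Non-sorted cells. Each sorted population lay apart from the others, in the order High, Low, Sublow, Negative. The log2 difference from Low was 0.98 (SE 0.25, adjusted p = 0.0118) in High, -1.82 in Sublow (adjusted p = 0.000195) and -5.90 in Negative (adjusted p = 3.10e-09). Between libraries with the same lane label as a Low library the differences were 1.13, -2.20 and -5.66. These rest on 2 High and 2 Low libraries whose label, Combo_L000, marks combined files and names no lane, on 2 Sublow libraries against 1 Low library in lane 5, and on 1 Negative against 1 Low library there, as do all such values below.

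Against this range of levels, the share of upstream starts of miR-375-3p moved little. The upstream form was 6.75% ± 0.130 (SD, n = 3) of the annotated form in High, 7.38% ± 0.480 in Low, and 7.84% ± 0.666 in Sublow. It was 8.67% ± 1.81 in Negative and 7.27% ± 0.519 (n = 2) in Non-sorted cells. Single libraries ran from 6.62% to 10.5%, with the highest in Negative 2. The log2 ratio differed from Low by -0.13 in High (95% interval -0.40 to 0.15), 0.09 in Sublow (-0.19 to 0.36) and 0.21 in Negative (-0.06 to 0.49), and passed no test. Without Negative 1 the ratio test across populations called it.

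The other endocrine members were all lower in Negative than in Low, as miR-375-3p was, but not all followed it in High and Sublow. For miR-182-5p the Sublow difference was not called (-0.17, adjusted p = 0.627). The miR-7 forms were not called in High (miR-7a-1-5p 0.14, miR-7a-2-5p 0.02 and miR-7b-5p 0.32, adjusted p = 0.815, 0.976 and 0.618). Upstream miR-182-5p was at 149, 93.7 and 94.6 RPM in High and 40.4, 41.4 and 40.7 RPM in Low, and every High library lay above every Low library (log2 difference 1.41, SE 0.25, adjusted p = 0.00148). Its share was 0.312% ± 0.0896 of the annotated form in High and 0.304% ± 0.0183 in Low (SD, n = 3). Upstream miR-7a-1-5p was at 88.1, 79.4 and 92.8 RPM in Low, 32.4, 17.01 and 31.7 RPM in Sublow and 5.97, 5.70 and 9.65 RPM in Negative, with no overlap (log2 differences -1.70 and -3.47, adjusted p = 0.00271 and 4.06e-06). Its share stayed between 0.263% and 0.398% in all libraries. Upstream miR-7b-5p was listed at 0 in all 3 Negative libraries and at 9.54 to 17 RPM in Low, so no fold is given. It reached 10 RPM only in High and Low libraries. It is thus a member through the groups where it is high, and its lower calls are partly set by the threshold. The endocrine marker sums fell from High through Low and Sublow to Negative, but 4 of their 6 markers are the annotated forms of these miRNAs. The part of cell composition in these levels was not tested.

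**Figure D4:**
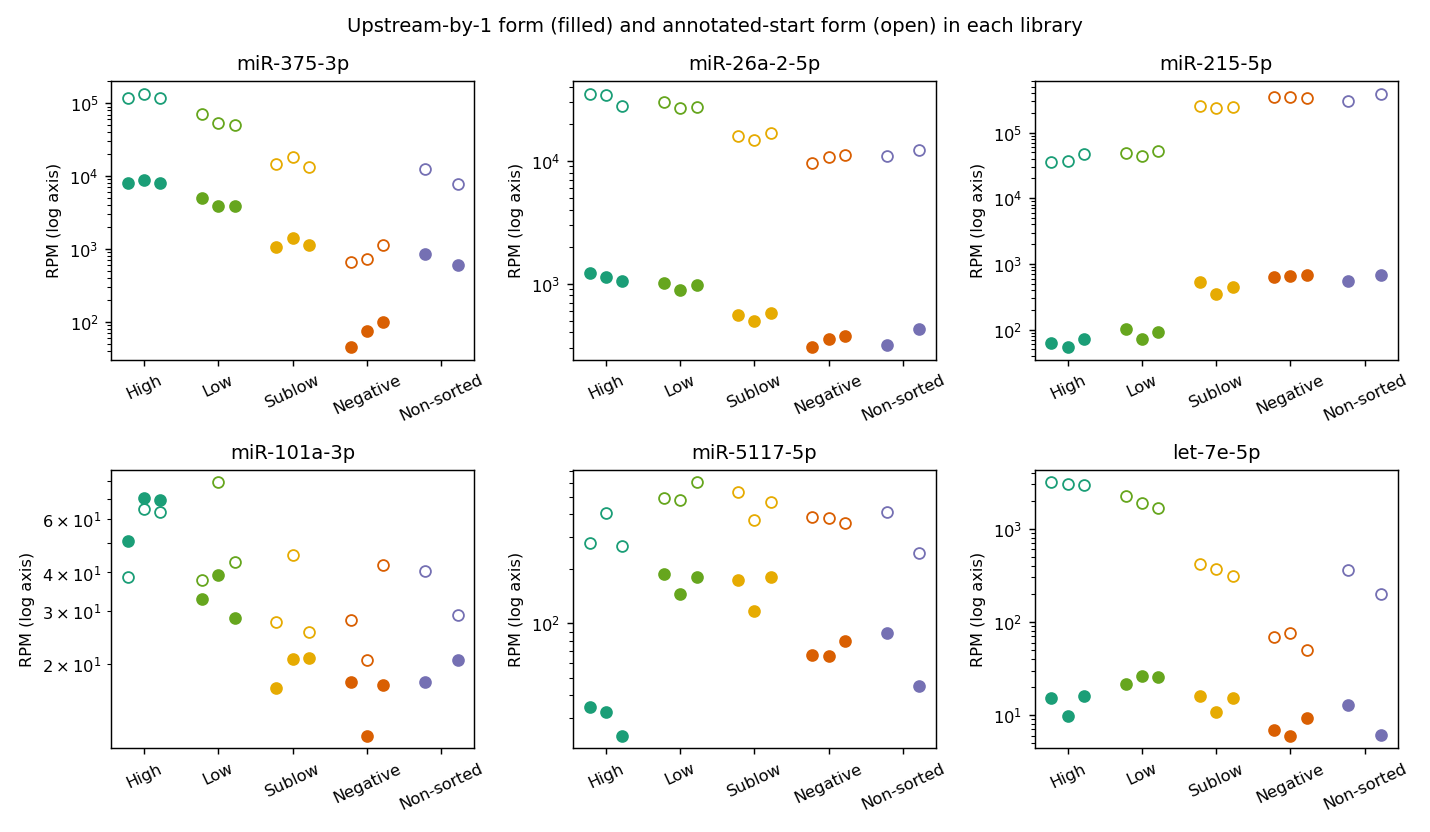
RPM (log axis) of the upstream form (filled) and of the annotated form (open) of 6 miRNAs in each library, coloured by population. For miR-375-3p, miR-26a-2-5p and miR-215-5p both forms keep a near-constant distance, while for let-7e-5p the distance narrows from High to Negative and for miR-5117-5p it is widest in High.

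The next group holds 6 upstream forms of miR-192, of miR-194 and of miR-215, whose hairpin lies beside miR-194-1 on chromosome 1. Of the 6, 4 were higher in Sublow than in Low (background 10.4%), namely both arms of miR-215 and the 5p arms of both miR-194 copies. In Negative 5 were higher (background 16.5%), these 4 and miR-194-1-3p, and 1 (miR-192-5p) was lower. In High 1 was lower (background 20.1%), miR-194-1-3p (-2.08, adjusted p = 0.00740, and -1.73 after rescaling, still called). After rescaling the 4 and 5 higher calls stood and miR-192-5p was no longer called. Upstream miR-215-5p was at 62.8, 54.3 and 71.4 RPM in High, 102.8, 72.35 and 92.5 RPM in Low, 538, 344 and 450.1 RPM in Sublow and 644, 662 and 683 RPM in Negative. Sublow and Negative lay above Low without overlap, while the highest High library lay just under the lowest Low library and the High difference did not pass the test (adjusted p = 0.0722). The log2 difference from Low was 2.29 (SE 0.19, adjusted p = 4.81e-06) in Sublow and 2.89 (adjusted p = 9.07e-08) in Negative. Within lane 5 it was 2.25 and 2.72. Yet the upstream form was only 0.145% to 0.213% of the annotated form, which was at 335102 to 345077 RPM in Negative. Upstream miR-215-3p, from the opposite arm of that hairpin, was listed at 0 in all High libraries and in 2 Low libraries, and at 11.4 to 13.9 RPM in Negative. Upstream miR-215-3p and miR-194-1-3p reached 10 RPM in no High or Low library. They are members only through the groups where they are high, so their higher calls are partly set by the threshold.

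The miR-194 hairpins give 1 mature sequence, and their upstream forms differ by G1C (miR-194-1-5p to miR-194-2-5p, counted from the 5′ end of the upstream form). Upstream miR-194-1-5p, from chromosome 1, was at 11.02, 9.17 and 12.4 RPM in Low, 106.7, 55.7 and 100.5 RPM in Sublow and 197, 214.6 and 236 RPM in Negative. Upstream miR-194-2-5p, from chromosome 19 beside miR-192, was at 48.6, 30.7 and 34.5 RPM in Low, 149.5, 60.97 and 124 RPM in Sublow and 183.3, 197 and 235 RPM in Negative. The first copy was thus below the second in every High, Low and Sublow library and not below it in Negative. Relative to the second copy it came to 0 to 37.1% in High, 22.7 to 35.8% in Low, 71.3 to 91.3% in Sublow, 100.2 to 108.7% in Negative and 107.7 to 114.4% in Non-sorted cells. The annotated row of the first copy was above that of the second everywhere, and by more in Negative (372 to 425%) than in High and Low (134.7 to 173%). The log2 difference from Low in Negative was 4.199 (SE 0.67, adjusted p = 0.000168) for the first copy and 2.42 (adjusted p = 3.81e-05) for the second. Upstream miR-194-1-5p was at 0 to 9.83 RPM in High and 9.17 to 12.4 RPM in Low. It thus passed the threshold of 10 RPM in 3 libraries only through the groups where it is high. Its higher calls, counted above, are partly set by the threshold. Over 21 alternatives the first copy's difference stayed between 4.09 and 5.03 in Negative and between 2.69 and 3.21 in Sublow. Its Negative call was lost in 1 alternative and its Sublow call in 2. The weakest for both was the fit to the libraries with miR-295-3p at 0, which has 1 Negative library. The difference between copies was singled out after its values were seen and was not tested, and neither the labels nor the file say how reads shared by copies were assigned.

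The miR-26a copies show that such copies cannot always be told apart. Their upstream forms differ by G1A (miR-26a-1-5p to miR-26a-2-5p, counted as above), yet the listed values agreed within 0.26% in every library. Upstream miR-26a-2-5p was at 1212, 1139 and 1041 RPM in High, 1004, 882 and 973 RPM in Low, 558, 493 and 576 RPM in Sublow and 304, 351 and 373 RPM in Negative. Low, Sublow and Negative do not overlap. The log2 difference from Low was -0.81 (SE 0.13, adjusted p = 0.000534) in Sublow and -1.48 (adjusted p = 1.23e-06) in Negative. The Sublow call was lost after rescaling, where the difference was -0.42 (adjusted p = 0.0755), while High was then called higher (0.57, adjusted p = 0.0195). The ratio differences of the miR-26a copies had the narrowest intervals of the 50 members. The share of upstream miR-26a-2-5p was 3.49% ± 0.190 in High, 3.38% ± 0.162 in Low, 3.43% ± 0.0964 in Sublow and 3.27% ± 0.101 in Negative (SD, n = 3). The log2 ratio differed from Low by 0.04 in High (95% interval -0.13 to 0.22), 0.02 in Sublow (-0.15 to 0.20) and -0.05 in Negative (-0.22 to 0.13).

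In the let-7 family, a group of miRNAs linked to differentiation, 12 members were listed with miR-98. In Negative 10 of the 12 were lower than in Low (background 49.5%), and in High 2 were lower (background 20.1%). After median-ratio rescaling let-7i-5p alone was still called in Negative, let-7b-5p and the uncalled let-7g-5p and miR-98-5p changed sign, and both High calls were lost. All 12 were tested for the ratio and 1 was called, let-7e-5p. The annotated form of let-7e-5p fell steeply, from 3154, 3026 and 2923 RPM in High and 2274, 1873 and 1686 RPM in Low to 418, 369.9 and 309.7 RPM in Sublow and 68.4, 75.9 and 49.5 RPM in Negative. The upstream form was at 15.4, 9.81 and 15.9 RPM in High, 21.7, 26.5 and 25.7 RPM in Low, 16.01, 10.9 and 15.1 RPM in Sublow and 6.91, 5.97 and 9.35 RPM in Negative. It was highest in Low, where the annotated form was not.

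The upstream form of let-7e-5p was 0.451% ± 0.114 (SD, n = 3) of the annotated form in High, 1.30% ± 0.303 in Low, and 3.88% ± 0.968 in Sublow. It was 12.3% ± 5.83 in Negative and 3.29% ± 0.384 (n = 2) in Non-sorted cells. The sorted populations do not overlap, and within Negative the library Negative 3 was highest at 18.9%. The log2 ratio was 3.17 above Low in Negative (95% interval 2.39 to 3.94, adjusted p = 0.000176). In lane 5 the difference was 4.31, between Negative 3 and Low 1 alone. The difference of High from Low was -1.53 (-2.31 to -0.75, adjusted p = 0.0640), and that of Sublow 1.58 (0.80 to 2.35, adjusted p = 0.0788), both short of the threshold. Under a lane term both passed (adjusted p = 0.0179 and 0.0335), and under a replicate block too (0.0222 and 0.0217). High also passed with a denominator of all rows of the miRNA (0.0274), with a pseudocount of 1 (0.0429) and without the variance trend (0.0482). Leaving out High 1 or Negative 3 brought High past it (0.0336 and 0.0246), and leaving out any other single library did not. The Negative call held under every alternative in which the ratio was tested, including the fit to the libraries with miR-295-3p at 0, where the difference was 3.97 (adjusted p = 0.0169). At its level of 5.97 to 26.5 RPM this form is among the less abundant members.

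The upstream form of let-7e-5p tracked other let-7 rows more closely than its own annotated form. It differs from upstream let-7a-1-5p by A1C and U10G, counted from the 5′ end of the upstream form. It was 42.8% to 94.5% of upstream let-7a-1-5p (median 64.1%), and the log2 ratio of these rows had an SD of 0.32 over 14 libraries. The log2 ratio to its own annotated form had an SD of 1.73. The same SD to the annotated let-7i-5p row was 0.35, and to the annotated let-7a-1-5p row 0.39, at a median of 0.113%. Upstream let-7a-1-5p itself was 0.0925% to 0.195% of its annotated form. This comparison was added after the let-7e-5p values were seen and is a description over libraries that share their scaling, with no test.

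**Figure D5:**
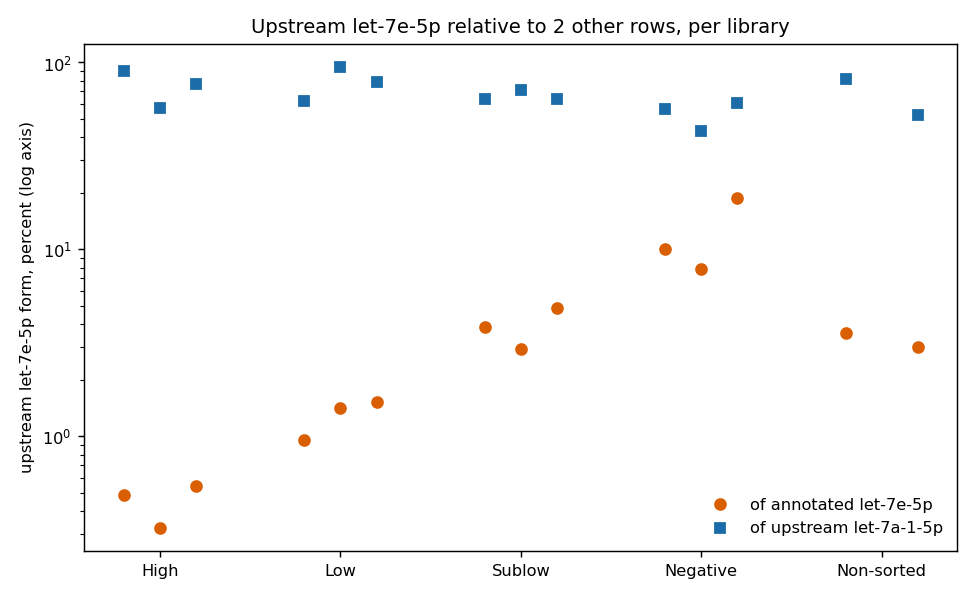
Upstream let-7e-5p in each library as a percent of its annotated form (orange circles) and of upstream let-7a-1-5p (blue squares), log axis. The circles climb from 0.324% in High to 18.9% in Negative, while the squares stay between 42.8% and 94.5%.

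The second member with a called ratio was miR-5117-5p. RefSeq lists Mir5117 as a synonym of Gas5, a non-coding host gene of small nucleolar RNAs, and no mature sequence matched. Its upstream form was at 34.5, 32.2 and 23.9 RPM in High, 187, 145 and 180.98 RPM in Low, 173, 116.5 and 181.35 RPM in Sublow and 66.8, 65.8 and 80.05 RPM in Negative. High was lowest and apart from all others, and Low and Sublow overlap. The annotated form moved less, at 269 to 408 RPM in High and 483 to 602 RPM in Low. The share of the upstream form was 9.70% ± 2.33 in High, 32.7% ± 4.56 in Low, 34.2% ± 4.02 in Sublow and 18.97% ± 2.98 in Negative (SD, n = 3), and 18.4% and 21.4% in Non-sorted cells. The log2 ratio differed from Low by -1.77 in High (95% interval -2.17 to -1.37, adjusted p = 7.22e-05) and by -0.79 in Negative (-1.19 to -0.39, adjusted p = 0.0277). In Sublow it was 0.07 (-0.33 to 0.47). Among the Combo_L000 libraries the High difference was -1.61, and in lane 5 the difference of Negative 3 from Low 1 was -0.76.

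The Negative call for miR-5117-5p was lost when Low 1, Low 2, Negative 1 or Negative 2 was left out, with a lane term (adjusted p = 0.199), without the variance trend, and in the libraries with miR-295-3p at 0 (adjusted p = 0.850). The High call was lost only in the last of these (-1.69, adjusted p = 0.0536). The opposite arm, miR-5117-3p, had an upstream form above its annotated form in every library, at 111% to 294%. Its level was lower than Low in High and in Negative (log2 differences -1.03 and -1.60, adjusted p = 0.0286 and 0.000746), and both of these calls were lost after rescaling. In all, the High call was lost in 7 of 21 alternatives. These include a lane term (adjusted p = 0.136, the highest) and leaving out High 1 (0.0993), High 3 (0.0633) or Low 1 (0.109).

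The upstream form of miR-101a-3p carries the seed UACAGUA, shown above beside miR-101b-3p. It was at 50.8, 70.3 and 69.4 RPM in High, 32.8, 39.2 and 28.4 RPM in Low, 16.7, 20.8 and 21.01 RPM in Sublow and 17.5, 11.6 and 17.03 RPM in Negative. High lay above Low, and Low above Sublow and Negative, without overlap. The log2 difference from Low was 0.90 in High (adjusted p = 0.0135), -0.74 in Sublow (adjusted p = 0.0290) and -1.08 in Negative (adjusted p = 0.00160), and the Sublow and Negative calls were lost after rescaling. The upstream form was 131%, 109% and 109% of the annotated form in High, so it was the larger of the forms there. It was 49.6% to 86.4% in Low, 45.7% to 82.5% in Sublow and 40.4% to 62.5% in Negative, below 100% in all libraries outside High. The ratio test across populations gave an adjusted p of 0.0649, which misses the threshold, and the difference of High from Low was 0.83 (95% interval 0.19 to 1.47, adjusted p = 0.127). The level call in High was lost under a lane term (adjusted p = 0.101, the highest over the alternatives) and without High 3 (0.0508) or Low 3 (0.0560), and that in Sublow without Low 1 (0.0563), Low 2 (0.0977) or Sublow 1 (0.106). Annotated miR-101b-3p, close in sequence, was at 51.3 to 83.5 RPM in High and 138 to 158 RPM in Low, the opposite order, and how reads of near-identical miRNAs were assigned is not given. Upstream miR-103-1-3p, which has the miR-15 and miR-16 seed, was at 0 to 6.61 RPM in High, 3.05 to 7.41 RPM in Low, 10.01 to 15.15 RPM in Sublow and 11.7 to 13.2 RPM in Negative. It differed among the populations (adjusted p = 0.0161), and no single comparison with Low passed, although Sublow and Negative do not overlap with Low. After rescaling Negative was called higher (1.91, adjusted p = 0.0185). Upstream miR-103-1-3p reached 10 RPM in no High or Low library, so it is a member only through the groups where it is high.

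In 10 members the upstream form was at least as abundant as the annotated form by the median over the libraries with both. These were miR-677-5p, miR-425-3p, miR-5117-3p, miR-5105, miR-345-3p, miR-5102, miR-1843b-5p, miR-467c-5p, miR-5099 and miR-378b. Of these, miR-5117-3p, miR-5105, miR-5102, miR-467c-5p and miR-5099 matched no RefSeq mature sequence, so their annotated starts were not checked. In 4 of the 70 the upstream form exceeded the annotated form in all 14 libraries. Upstream miR-425-3p was 299.5% ± 87.2 of the annotated form in High, 363% ± 52.7 in Low, 275% ± 19.5 in Sublow and 314% ± 144 in Negative (SD, n = 3). Its level was 64.9 to 110.2 RPM in Low and 21.5 to 28.8 RPM in Negative, lower without overlap (log2 difference -1.81, adjusted p = 2.21e-05). Upstream miR-1843b-5p was 131% to 431% of its annotated form. Its level ran from 42.75, 66 and 51.01 RPM in High through 27.9, 29.1 and 34.97 RPM in Low to 9.19, 11.9 and 5.12 RPM in Negative, with no overlap among these groups. The High difference missed the threshold (adjusted p = 0.0825) and Negative passed it (-1.76, adjusted p = 0.000292). After rescaling High was called too (1.07, adjusted p = 0.0217). Upstream miR-677-5p was at 15.7 to 40.8 RPM in High and 54.6 to 72.25 RPM in Low, lower without overlap (log2 difference -1.20, adjusted p = 0.0100). Its annotated form was listed at 0 in High 2 and at 3.35 to 16.7 RPM elsewhere, so its ratio was not tested. Upstream miR-5102 was at 58.4 to 114 RPM in Negative and at 0 to 6.04 RPM in Low, with an annotated form listed at 0 in 7 of the 14 libraries. It reached 10 RPM in no High or Low library, so the threshold itself favours this difference.

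Among the remaining abundant members, upstream miR-5109 was at 79.5, 57.9 and 109 RPM in Low, 400.4, 333 and 289 RPM in Sublow and 876, 1026 and 889.6 RPM in Negative, each group apart from the others (log2 differences 2.07 and 3.53, adjusted p = 1.33e-05 and 3.13e-08). Its share was 34.9% to 62.9% of the annotated form in all libraries. Upstream miR-92a-1-3p, from the proliferation-linked miR-17-92 cluster, was at 99.8, 89.2 and 131 RPM in Low and highest there. It was at 22.1 to 37.3 RPM in High and 34.0 to 48.8 RPM in Sublow (log2 differences -1.91 and -1.38, adjusted p = 0.000121 and 0.000878). Its share stayed at 0.519% to 0.867%. Upstream miR-378-3p was lowest in High, at 29.2, 27.9 and 34.98 RPM, against 76.0, 56.3 and 92.1 RPM in Low (log2 difference -1.24, adjusted p = 0.00111). Upstream miR-200c-3p and miR-26b-5p, at 147.8 to 341 RPM and 159 to 373 RPM, were lower in Negative than in Low by -0.50 and -0.51 (adjusted p = 0.0401 and 0.0187). After rescaling both differences were positive and not called. The call of miR-26b-5p was lost without Low 3 (adjusted p = 0.0650) or Negative 1 (0.0865), and that of miR-200c-3p without High 1, any Low library, Sublow 1, Negative 1 or Negative 2 (up to 0.12). Under a lane term both were lost (0.546 and 0.600). Upstream let-7d-5p was lower in High (-0.55, adjusted p = 0.0104), a call lost after rescaling (-0.23). Upstream miR-423-3p was at 14.1% to 27.9% of its annotated form.

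The changes of greatest size called in High were in low members, named after their values were seen. Upstream miR-22-3p was at 20.7, 11.5 and 10.04 RPM in High and 3.15, 0 and 3.09 RPM in Low (2.49, adjusted p = 0.00442). Upstream miR-203-3p was at 4.77, 0 and 8.99 RPM in High and 15.2, 30.97 and 27.6 RPM in Low (-2.67, adjusted p = 0.0116). In both the groups do not overlap, and a 0 enters each. No Low library of miR-22-3p and no High library of miR-203-3p reached 10 RPM. Both are thus members only through groups where they are high, which favours these differences.

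Of the 70 members, 17 were listed at 0 in at least 1 library, most often in High, where 15 had a 0. Upstream miR-467c-5p moved with miR-295-3p across populations. It was at 15.9 to 28.0 RPM in the 7 libraries that list miR-295-3p and at 0 to 9.14 RPM in the other 7, with 5 of those at 0. Upstream miR-411-5p was at 2.97 to 12.4 RPM and at 0 to 4.47 RPM in the same sets. Upstream miR-10a-5p reached 10 RPM only in High 3, Low 3 and Sublow 3. Upstream miR-5115 was highest in library 1 of each population, at 556, 223 and 101 RPM in Negative and 47.6, 25.6 and 5.28 RPM in Low, so its difference of 3.54 in Negative (adjusted p = 0.0322) stands on groups whose own libraries differ several-fold. That call was lost without Low 2 (0.0545), Low 3 (0.124), Negative 1 (0.111) or Negative 2 (0.0646), and under a lane term (adjusted p = 0.577).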

How the data were processed

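The authors deposited 1 table of RPM values for 14 small RNA libraries; no header states the unit, which was read from the columns, each totalling 1000000. Per the submitters' processing notes the genome build is mm9. Aligner and counting rules: not given in the sources used here. Levels were tested as log2(RPM + 1), a scale that understates changes of low rows, in a model of 5 groups with limma 3.58.1 in R 4.3.3. The threshold was an adjusted p of 0.05, two-sided, Benjamini-Hochberg over 588 rows. Ratios of shifted to annotated rows were tested as log2 values without a pseudocount over 199 shifted rows. The procedure was tested on simulated data with independent noise. Those data hold neither the correlations by replicate number given below nor values at 0 from a floor, so they do not cover these features.

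Named are the 10 highest means, the 6 smallest p of the ratio test, members with a median ratio of at least 1, up to 3 largest called changes per direction and comparison (levels: groups apart, the higher averaging at least 50 RPM), the edge of the threshold, and others where a count or pattern needed a name. RPM low values gave whole reads within 0.1 read for 71.8 to 84.8% of rows, too few for a count test. The members, lists and rules were chosen with earlier results of these data known. Families and markers came from general knowledge. Alternatives were other pseudocounts, filters, scaling, denominators, lane and replicate terms and leaving out libraries. Within-lane values and lane terms use the lane codes in the sample descriptions; the 4 libraries coded Combo_L000 are combined files, treated as 1 lane. Sequences are from RefSeq, GRCm38.p6, for 54 of 70 members.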

Additional observations from a re-analysis of the deposited data

How the results depend on the processing

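The counts of members called (levels 52 among populations, 19 in High, 19 in Sublow and 49 in Negative against Low; ratios 2, 1, 0 and 2) changed by more than 1.5 times as follows. With a filter of 50 RPM, which tests fewer rows, levels gave 27 among populations, 10 in High and 28 in Negative. Median-ratio rescaling gave 31 in Negative, and it turned the Negative difference of miR-200c-3p to 0.38 and of miR-26b-5p to 0.36. Ratios with a pseudocount of 1 and all rows past the filter gave 4 among populations and 2 in High. With shifted rows of at least 50 RPM, where let-7e-5p is not tested, they gave 1 and, in Negative, 1. A denominator of all rows of the miRNA gave 2 in High. Without the variance trend there were 2 in High and 1 in Negative. A lane term gave 3 in High, 1 in Sublow and 1 in Negative. In the 7 libraries with miR-295-3p at 0, an alternative chosen after seeing the data, levels gave 25 among populations, 8 in High and 32 in Negative, and ratios 1, 0 and 1. Leaving out 1 library gave levels of 43 to 52 among populations, 15 to 21 in High, 17 to 21 in Sublow and 41 to 53 in Negative. For ratios it gave 2 to 3, 1 to 2, 0 to 0 and 1 to 2. Shares over all rows were not taken for these alternatives, nor for the replicate block below. Their counts therefore do not set the members against the table. The causes were not tested except as stated. The main fits do not pair the libraries by replicate number. Same-number correlations ran from -0.35 to 0.78 (median 0.33, 17 of 26 above 0.1). Other-number correlations ran from -0.84 to 0.71 (median -0.11, 11 of 52 above 0.1), and 11 of 14 libraries correlated best with one of their own number. The column names carry 1 BC code per replicate number, and the labels do not say what it marks. A shared sort or batch is possible, and the main tests leave it out. With a replicate block levels gave 53, 22, 20 and 49, and ratios 3, 2, 1 and 3, adding let-7e-5p in High (adjusted p = 0.0222) and Sublow (0.0217) and miR-200c-3p in Negative (0.0123). The floor of about 10 reads left 17 members with a 0. In all, 20 members had no ratio test, among them miR-1843b-3p, which has no annotated row.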
